A study of Irpex lacteus with 14 samples.

Results

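In the wood-decay fungus Irpex lacteus, 35 of the 967 genes kept had higher transcript levels on both aspen and pine than on 3 others. The others were maltose, cellulose and wheat straw. Genes past set limits for pine alone, for straw or for all solids were left out, though a member can still be raised on straw over maltose. How the table's genes were picked from the genome is not given. Below, all genes means these 967, not the whole transcriptome. The members were chosen by the deposited values themselves. The lower of the aspen and pine values had to stand at least 0.5 (log2) above the highest of the maltose, cellulose and straw values, and this difference is called the wood margin here. In addition, straw had to lie less than 1 above the higher of maltose and cellulose, pine less than 0.8 above every other substrate, and the lower of cellulose and straw less than 1 above maltose. The membership and every difference between substrates below are therefore a description and carry no test.

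The study grew strain CCBAS Fr. 238 617/93 in shaken flasks with 100 ml of liquid medium, kept at 30 °C over 3 days, and sequenced polyadenylated RNA of the mycelium. All media shared the same mineral salts, yeast extract, thiamin and diammonium tartrate. The maltose cultures (3 libraries) contained maltose at 20 g per litre and no solid. The cellulose cultures (3 libraries) contained maltose at 2.5 g per litre, with Avicel at 15 g per litre (a microcrystalline cellulose). The wheat straw cultures (3 libraries) and pine cultures (2 libraries) had the same maltose level, with ground material at 15 g per litre, sieved to under 2 mm. The aspen cultures (3 libraries) held 15 g per litre of wood milled to 1 mm, and their maltose level is not legible in the labels. Sugar level and grinding therefore cannot be told apart from the substrate in some of the comparisons, including aspen against pine. All libraries come from the same strain, and nothing in the labels says whether libraries of a substrate came from separate flasks.

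White-rot fungi such as Irpex lacteus degrade lignin together with cellulose and hemicellulose, with secreted peroxidases, glycoside hydrolases and oxidases that act on polysaccharides. Wood of hardwoods such as aspen has xylan as its main hemicellulose and a lignin of guaiacyl and syringyl units, whereas softwoods such as pine are rich in galactoglucomannan, have a lignin mainly of guaiacyl units and carry resin. Straw, a grass material, has arabinoxylan with ferulic acid links and a lignin that also holds p-hydroxyphenyl units. The genes in the table are identified by MycoCosm portal numbers only, with no names, functions or sequences, so no member is given a role. The lists of carbohydrate-active enzymes, peroxidases, laccases, cytochrome P450s, transporters and hydrophobins could not be filled.

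For each gene the table holds 1 normalized log2 read count per substrate, which stands for all libraries of that substrate. No library totals or values of single libraries were used here, so depth and the spread between libraries are unknown, and whether a difference exceeds the error between cultures could not be tested for any gene. A gene is counted as 2-fold higher or lower when its values differ by at least 1 (log2). Elsewhere, higher and lower give the order of the values, whatever the size of the difference. The deposited columns are not level with each other. The median of the per-gene differences from maltose was 0.03 on cellulose, 0.09 on straw, 0.10 on aspen and 0.43 on pine, so pine values lie high for the typical gene. The filter asked for about 10 normalized counts on at least 2 substrates. Of the 35 members, 31 reached this level on all 5 substrates. The other 4, genes 249560, 1441678, 1594123 and 1595434, reached it on aspen and pine alone. These 4 thus passed the filter only through the substrates in which they are high.

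The 35 members were mostly of middle abundance on the woods, and the typical member was between 2.3-fold and 2.8-fold higher on a wood than on another substrate. Their median level was 7.67 on maltose, 7.38 on cellulose, 7.45 on straw, 9.21 on aspen and 9.19 on pine. Their mean over the woods had a median of 8.97, against 8.80 for the 967 genes. The median difference from maltose was 1.48 on aspen and 1.31 on pine, where the median of all genes was 0.10 and 0.43. The median differences from cellulose were 1.43 and 1.42, and those from straw were 1.50 and 1.22. The wood margin ran from 0.51 to 2.02 with a median of 0.79, or 1.73-fold. Most members thus stood only modestly above their next highest substrate, and 11 of the 35 had a wood margin of at least 1.

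On aspen, 27 of the 35 members were at least 2-fold higher than on maltose, against 21.0% of all genes. Aspen was 2-fold above cellulose for 30 members (14.7% of all genes) and above straw for 26 (17.2%). Pine was 2-fold above maltose for 25 members (32.2% of all genes), above cellulose for 28 (24.7%) and above straw for 23 (22.0%). The rule used these contrasts, so nothing is read from the members' excess over the shares of all genes. The counts against maltose depended most on the scaling: with columns centred on their medians they were 17 on aspen and 9 on pine, and with quantile normalization they were 20 and 11.

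**Figure D1:**
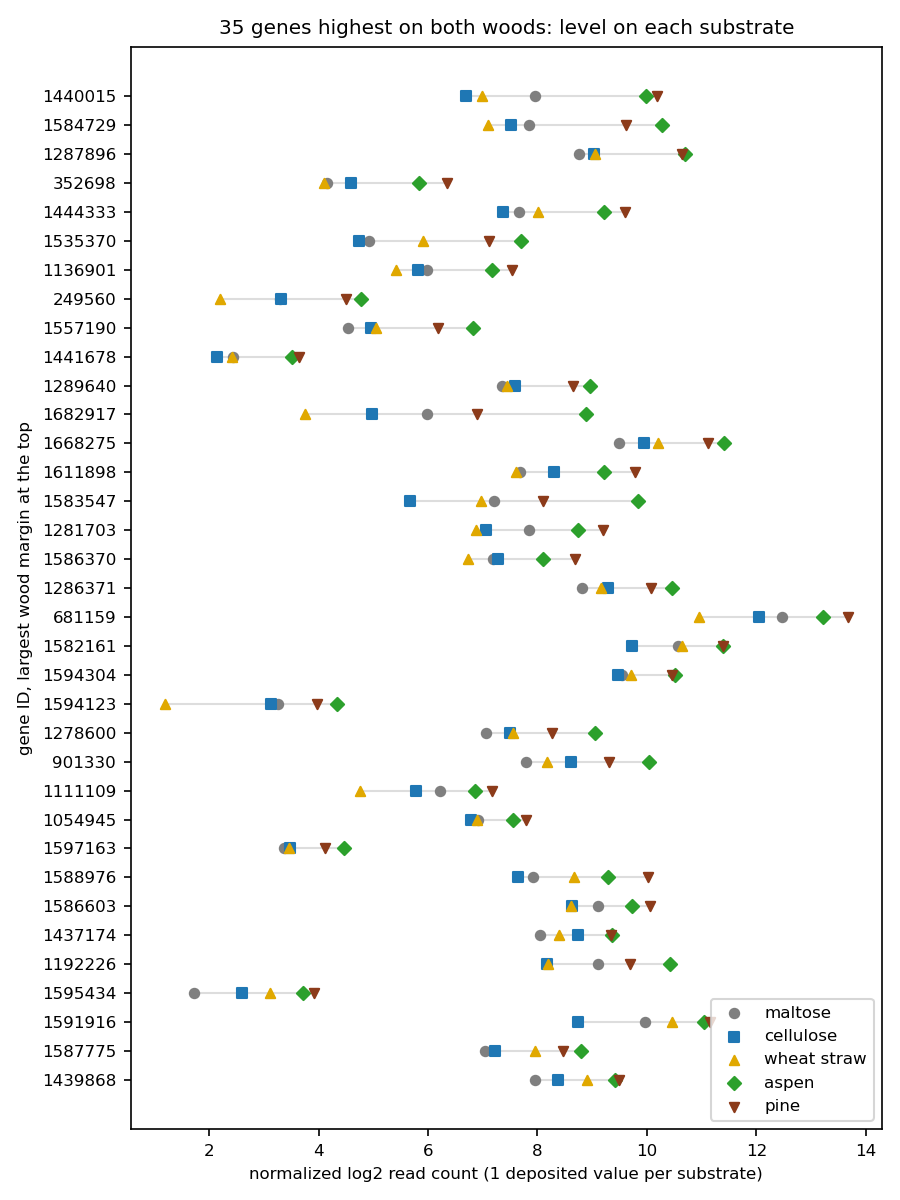
Each row is 1 of the 35 members, ordered by wood margin, and each symbol is the deposited normalized log2 read count on 1 substrate, with a grey line over the gene's range. The aspen and pine symbols lie to the right of the other 3 in every row, and the members span levels from 1.19 (gene 1594123 on straw) to 13.67 (gene 681159 on pine).

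Genes 1440015, 1584729 and 1287896 had the largest wood margins. Gene 1440015 was at 9.98 on aspen and 10.18 on pine, compared with 7.96 on maltose, 6.70 on cellulose and 6.98 on straw. It was 4.04-fold higher on aspen than on maltose, its next highest substrate, and pine exceeded cellulose, its lowest substrate, 11.2-fold. Gene 1584729 was at 10.28 on aspen and 9.63 on pine, compared with 7.84 on maltose, 7.52 on cellulose and 7.09 on straw, a wood margin of 1.79. These 2 genes had maltose as the highest of the other substrates, with both cellulose and straw below it. Gene 1287896 was at 10.69 on aspen and 10.64 on pine, and lay between 8.76 and 9.05 on the other 3 substrates. It was near the same level on both woods and near the same level on all 3 other substrates, unlike the first pair.

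The next margins belonged to genes 352698, 1444333 and 1535370. Gene 352698 was much less abundant, at 5.84 on aspen and 6.35 on pine, compared with 4.15 on maltose, 4.59 on cellulose and 4.09 on straw. Its wood margin of 1.25 came to 1.03 with 8 added to the linear values, which damps differences of low counts. Gene 1444333 was at 9.22 on aspen and 9.60 on pine, against 7.67, 7.38 and 8.01 on maltose, cellulose and straw. Gene 1535370 was at 7.69 on aspen and 7.11 on pine, compared with 4.92 on maltose, 4.75 on cellulose and 5.91 on straw. Here straw was intermediate: it stood 0.99 above maltose, just under the limit of 1 past which the rule leaves a gene out.

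**Figure D2:**
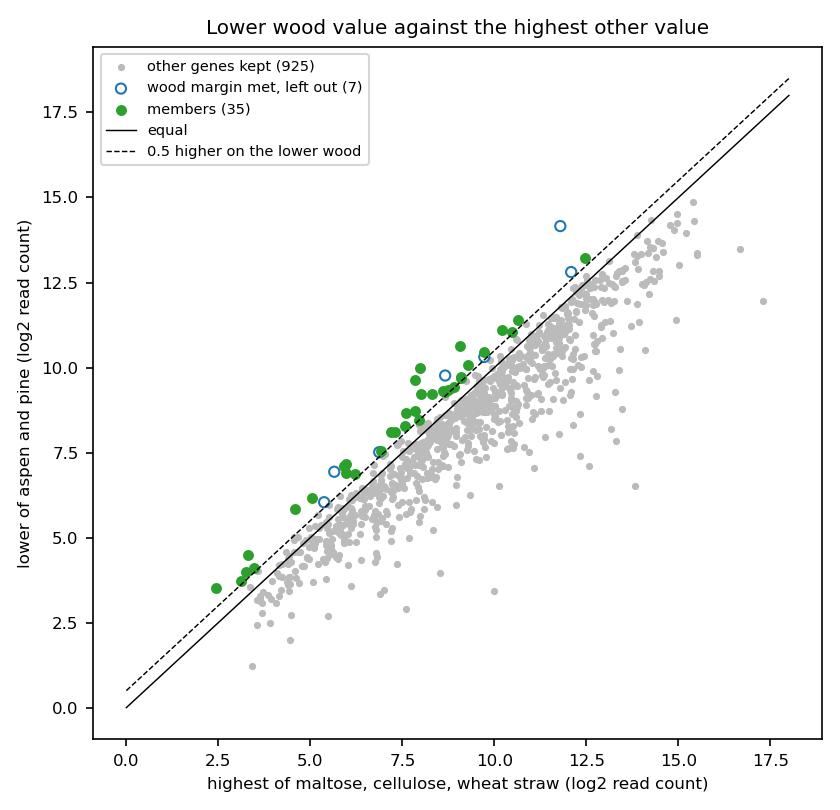
For each of the 967 genes the lower of its aspen and pine values (vertical axis, log2) is plotted against the highest of its maltose, cellulose and straw values (horizontal axis, log2). The 35 members (filled green) lie above the dashed line of a wood margin of 0.5, together with 7 genes (open blue) that another condition of the rule left out, and most genes lie below the line of equality.

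The most abundant member was gene 681159, at 13.67 on pine and 13.23 on aspen. It was also abundant on maltose (12.46) and cellulose (12.05) and lower on straw (10.96). It ranked 29 of the 967 genes on aspen and 50 on pine, compared with 56 on maltose, 90 on cellulose and 234 on straw. Its margin over maltose was 1.70-fold, whereas its pine level was 6.57-fold above its straw level. Straw was thus the substrate on which this gene stood out, by being low.

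Genes 1582161, 1668275 and 1591916 followed in abundance. Gene 1582161 was at 11.39 on aspen and 11.39 on pine, and at 10.57, 9.72 and 10.64 on maltose, cellulose and straw. Gene 1668275 was at 11.41 on aspen and 11.12 on pine, and at 9.49, 9.95 and 10.20 on the other 3. Gene 1591916 was at 11.04 on aspen and 11.16 on pine, and at 9.97, 8.74 and 10.47. Among these 3 genes the margin over the next substrate was largest for gene 1668275 (0.91), and straw was that next substrate in all 3.

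Together the members made up 0.987% of the linear values summed over all kept genes on maltose, 0.690% on cellulose, 0.615% on straw, 2.45% on aspen and 1.43% on pine. Gene 681159 alone gave 38.0% of the members' sum on maltose, 16.1% on straw and 36.0% on pine. Without it the shares were 0.612%, 0.455%, 0.515%, 1.78% and 0.915% in the same order. The members' share was thus higher on aspen than on pine, with or without that gene, although the typical member was level between the woods. A share is set against the column's whole sum, which differs between the woods.

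At the other end, 5 members (14.3%) had a mean over the woods under 5, against 8.38% of all genes. Gene 1441678 was at 3.51 on aspen and 3.64 on pine against 2.44, 2.15 and 2.42 on maltose, cellulose and straw, and gene 1595434 was at 3.71 and 3.91 against 1.73, 2.60 and 3.12. Their wood margins of 1.07 and 0.59 came to 0.53 and 0.34 with 8 added. Genes 249560, 1594123 and 1597163 complete this group, with 4.78, 4.33 and 4.47 on aspen. A log2 value of 4 stands for 16 normalized counts, so these differences rest on low normalized counts.

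Aspen was the higher wood in 19 members and pine in 16, compared with 374 and 593 of the 967 genes. The median of aspen minus pine was 0.01 over the members and -0.23 over all genes. The 2 values lay within 0.5 of each other in 23 of the 35 members and in 421 of the 967 genes, a smaller share. Pine could not exceed aspen by 0.8 under the rule, whereas aspen had no such limit, so nothing is read from these differences. On aspen, 2 of the 35 members were at least 2-fold higher than on pine, against 7.03% of all genes. That count was 5 when quantile normalized, 5 when scaled by the median gene and 2 when centred. The reverse was met by 0 members, by construction, and by 20.1% of all genes. How many members had aspen as the higher wood depended on the scaling. The number was 25 when the columns were scaled by the median gene, 23 when quantile normalized and 22 when centred on column medians.

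The 2 members with a large aspen excess were genes 1682917 and 1583547. Gene 1682917 was at 8.88 on aspen and 6.90 on pine, and at 5.97, 4.98 and 3.75 on maltose, cellulose and straw. It was 3.97-fold higher on aspen than on pine, and 1.90-fold higher on pine than on maltose. Gene 1583547 was at 9.84 on aspen and 8.10 on pine, and at 7.20, 5.66 and 6.97 on the other 3, 3.34-fold higher on aspen than on pine. In both genes pine stood nearer to maltose than to aspen. Gene 1278600 came next, at 9.04 on aspen and 8.27 on pine against 7.07, 7.50 and 7.56.

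The members with the largest pine excess were genes 1588976, 1586370 and 1611898. Gene 1588976 was at 10.03 on pine and 9.29 on aspen, compared with 7.93, 7.64 and 8.67 on maltose, cellulose and straw. Gene 1586370 was at 8.69 on pine and 8.10 on aspen, compared with 7.19, 7.29 and 6.73. Gene 1611898 was at 9.78 on pine and 9.21 on aspen, compared with 7.68, 8.31 and 7.60. The excess of pine over aspen in these genes was 0.73, 0.59 and 0.57, under 2-fold in each.

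Below the woods the members did not share 1 order of substrates. The lowest value was on maltose in 12 members (34.3%), on cellulose in 11 (31.4%) and on straw in 12 (34.3%). Among all genes these shares were 29.3%, 15.5% and 30.1%. The rule keeps aspen and pine from being a member's lowest substrate, so nothing is read from the differences in shares. Straw became the most frequent lowest substrate after rescaling, with 14 members when scaled by the median gene, 17 when quantile normalized and 19 when centred on column medians. The highest of the 3 other substrates was maltose in 13, cellulose in 9 and straw in 13, and the shares of all genes are not given here. Cellulose was 2-fold below maltose in 3 members (3.83% of all genes) and 2-fold above it in 0 (12.5%). The first count was 5 when scaled by the median gene, 8 when quantile normalized and 7 when centred on column medians. Straw was 2-fold below maltose in 5 members (19.9% of all genes) and 2-fold above it in 1 (24.5%). Straw was 2-fold below cellulose in 5 (18.6%) and 2-fold above it in 4 (20.4%). The rule limits how far straw, or cellulose and straw together, can lie above maltose, so the few higher counts follow in part from it.

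By the way in which the 3 other substrates lay, a grouping made after the values were seen, 10 members were flat, with all 3 values within 0.5. Among all genes the share that was flat in this sense was 20.4%, and among the members it was 28.6%. The rule also limits how these 3 substrates can differ, so nothing is read from that difference in shares. The 10 flat members were genes 1287896, 352698, 1441678, 1289640, 1286371, 1594304, 1278600, 1054945, 1597163 and 1586603, with wood margins from 0.62 to 1.58. Gene 1289640 is an example: it was at 7.35, 7.59 and 7.45 on maltose, cellulose and straw, and at 8.96 on aspen and 8.65 on pine. Gene 1054945 was flatter still, at 6.91, 6.79 and 6.89, with 7.55 on aspen and 7.79 on pine.

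In 5 members straw was at least 1 below both maltose and cellulose: genes 1682917, 1594123, 681159, 1111109 and 249560. Their share of the members, 14.3%, was near the 13.9% of all genes with such a straw value. That nearness depended on the cutoff: with straw at least 0.5 below both, the share was still 14.3% of members, against 25.3% of all genes. For gene 1682917 the straw level was 4.68-fold under that of maltose and 35.2-fold under that of aspen. The difference from aspen was 5.14, or 4.49 with 8 added. Gene 1111109 was at 4.77 on straw against 6.21 on maltose, 5.77 on cellulose, 6.86 on aspen and 7.17 on pine. Gene 1594123 was at 1.19 on straw, 3.25 on maltose, 3.13 on cellulose, 4.33 on aspen and 3.97 on pine. With 8 added, 1 of these 5 genes, the abundant 681159, kept a straw value at least 1 below both, and after quantile normalization 1 member had such a value. The count stayed at 5 after centring and after scaling by the median gene.

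In 3 members cellulose was at least 1 below maltose: genes 1583547, 1440015 and 1591916. Gene 1583547 was 2.90-fold lower on cellulose than on maltose, gene 1440015 2.40-fold, and gene 1591916, at 9.97 on maltose and 8.74 on cellulose, lower by 1.23 on the log2 scale. Straw lay between cellulose and maltose in genes 1583547 and 1440015 and above both in gene 1591916.

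In 5 other members straw stood 0.5 or more above both maltose and cellulose: genes 1535370, 1588976, 1595434, 1587775 and 1439868. They were 14.3% of the members, against 27.7% of all genes, and the rule limits this excess of straw to under 1. Gene 1439868 was at 7.96 on maltose, 8.38 on cellulose, 8.91 on straw, 9.42 on aspen and 9.50 on pine. Gene 1587775 had 7.05, 7.22, 7.96, 8.79 and 8.47 in the same order. Both lie at the edge of the set, with wood margins of 0.51. The remaining 12 members had a range of 0.52 to 0.97 over the 3 other substrates and wood margins of 0.59 to 1.79. They include gene 901330, at 7.79 on maltose, 8.61 on cellulose, 8.17 on straw, 10.04 on aspen and 9.31 on pine, the member in which cellulose exceeded maltose most after gene 1595434.

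**Figure D3:**
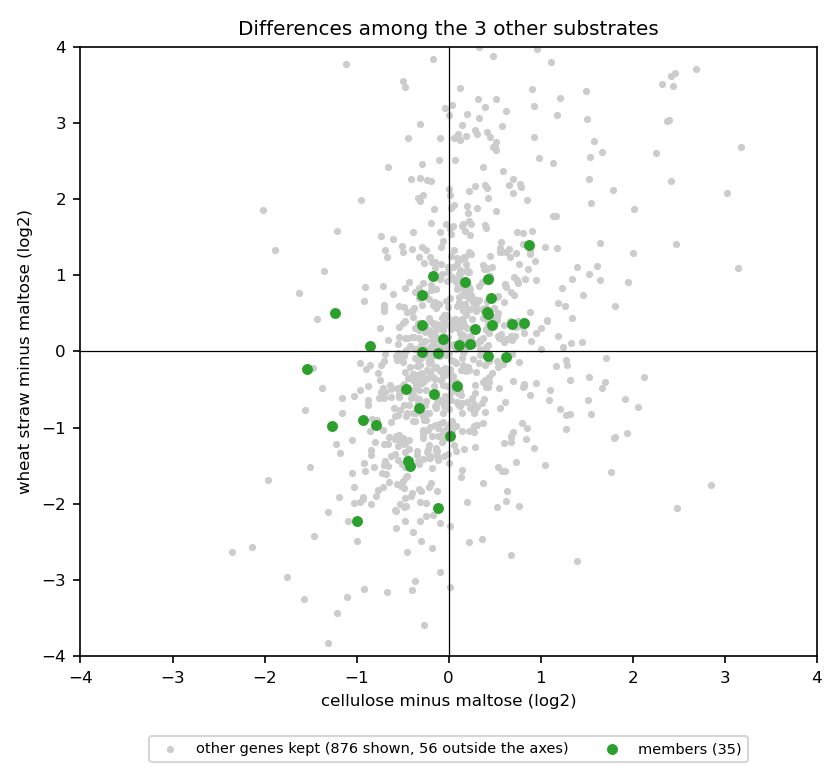
The straw minus maltose difference (vertical axis, log2) is plotted against the cellulose minus maltose difference (horizontal axis, log2) for the 35 members (green) and 876 other genes (grey), with 56 genes outside the axes. The members are spread around 0 in every direction, from -1.53 to 0.87 on the horizontal axis and from -2.23 to 1.39 on the vertical axis.

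The edge of the set was not marked by a gap. Genes 1439868 and 1587775 were the last inside, with wood margins of 0.508 and 0.509. Genes 1293470 and 1732799 were the first outside, with 0.496 and 0.494. Gene 1293470 was at 9.35 on aspen and 9.55 on pine against 8.85, 8.70 and 8.80 on maltose, cellulose and straw, and would count among the flat genes. At the other limits, the members closest to being left out were gene 1535370 for straw (0.99 above maltose and cellulose), gene 1588976 for pine (0.73 above the rest) and gene 1595434 for the solids (0.87 above maltose).

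The other conditions of the rule removed 7 genes that met the wood margin. In 5 of them pine stood 0.8 or more above every other substrate, in 1 straw was already raised, and in 1 cellulose and straw were both raised over maltose. The largest wood margin of the table belonged to a gene left out in this way. Gene 1437735 was at 14.16 on aspen and 15.45 on pine, compared with 11.79 on maltose, 9.66 on cellulose and 9.22 on straw, a margin of 5.16-fold, and pine exceeded aspen by 1.29. Like the members 1440015 and 1584729, it had maltose as the highest of the other substrates. Gene 1594344, left out because cellulose and straw were both raised, was at 10.44 on maltose, 12.08 on cellulose, 11.86 on straw, 12.81 on aspen and 12.87 on pine.

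The wood pair was set against the other 9 pairs of substrates by the same margin, a comparison added after the values were seen. In 42 genes (4.34%) aspen and pine both stood 0.5 above the other 3 substrates. Straw and pine did so in 111 genes, maltose and cellulose in 44, cellulose and straw in 36, and each of the other 6 pairs in 2 to 14. This order of pairs depended on the scaling. The wood pair counted 24 genes when scaled by the median gene, 19 when quantile normalized and 16 when centred. Cellulose and straw then counted 35, 31 and 36, and maltose and aspen 15, 21 and 18. In the opposite direction, 3 genes had both woods at least 0.5 below the other 3. That balance of 42 and 3 depended on the scaling: it was 24 and 10 when columns were scaled by the median gene, 19 and 19 when quantile normalized, and 16 and 24 when centred on column medians. The direction of the balance is therefore not settled by these values.

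Which members met the rule also depended on the scaling. The rule found 20 genes after scaling by the median gene, 16 after quantile normalization and 13 after centring, of which 19, 12 and 13 were members on the deposited values. A core of 11 members met the rule in each of these 3 scalings, on the deposited values and with 8 added. They were genes 1440015, 1287896, 1584729, 1444333, 352698, 1611898, 1136901, 1289640, 1668275, 1557190 and 249560. In the first 5 of these the wood margin stayed at 1 or more in every scaling. Gene 1440015 had its smallest margin, 1.49, after centring. The core does not take in the stricter filter of 32 normalized counts (log2 of 5). Core gene 249560 fails that filter, since its highest value was 4.78, on aspen. It passed the main filter through aspen and pine alone, with 3.30 on maltose, 3.31 on cellulose and 2.19 on straw. Its place in the core therefore rests on low normalized counts. The abundant gene 681159 met the rule with 8 added (0.76) and when scaled by the median gene (0.63), and missed it after quantile normalization (0.10) and centring (0.24).

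**Figure D4:**
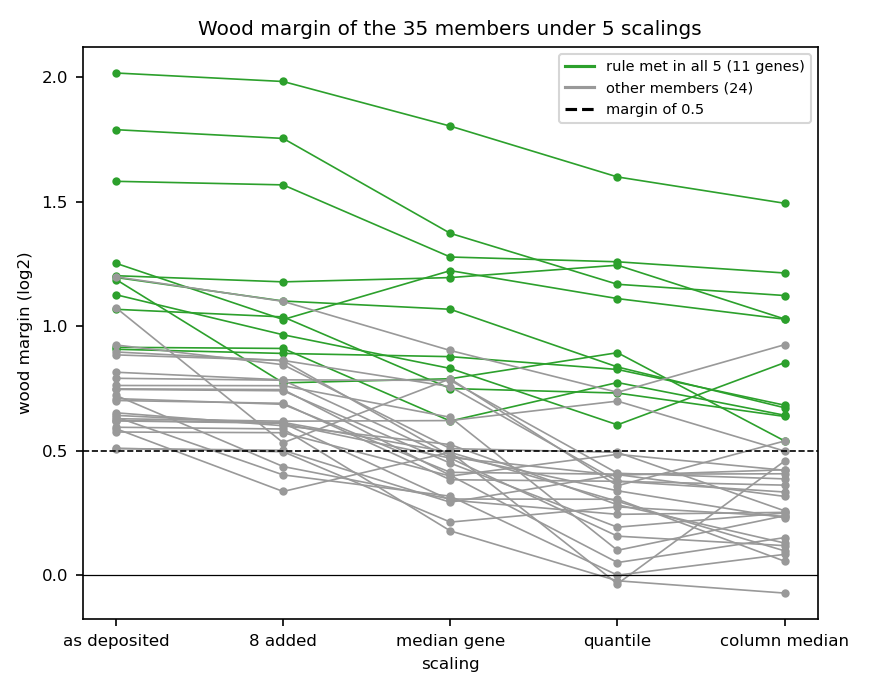
The wood margin (log2) of each of the 35 members is joined by a line over 5 scalings: as deposited, with 8 added, scaled by the median gene, quantile normalized and centred on column medians. The 11 members that meet the rule in all 5 are green. The other 24 (grey) fail the rule in at least 1 scaling, most of them by falling below the dashed line at 0.5.

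Ranks within a substrate do not depend on a shift of its column. By rank among the 967 genes, 32 of the 35 members stood better on both woods than on each other substrate, as did 7.55% of all genes. This largely follows from how the members were chosen and is given as a description. The exceptions were genes 1192226, 1595434 and 1597163. From the best other rank to the worse wood rank, the median gain over the members was 50 places. The gain was small in some of the 32, such as 4 places for gene 1582161 and 6 for gene 681159. The median rank was 402 on aspen and 439 on pine, compared with 568 on maltose, 639 on cellulose and 622 on straw. Gene 1440015 moved furthest, from 527 on maltose, its best rank among the other substrates, to 321 on pine and 301 on aspen.

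No 2 members had ID numbers within 5 of each other, and 5 members (14.3%) had an ID within 5 of another gene of the table, as did 7.76% of all genes. An ID number is not a position in the genome. The neighbour by number of gene 1582161, gene 1582158, was not a member but was also highest on both woods, with 7.24 on aspen and 7.14 on pine against 6.73, 6.46 and 6.35 on maltose, cellulose and straw. Gene 1557187, next to member 1557190 by number, was at 10.02 on pine, 7.71 on aspen and 7.77 on straw, a different pattern. Of the 7 neighbours, gene 1582158 was the only 1 with a wood margin above 0, and the other 6 had margins from -1.85 to -0.06. None of the members was among the 23 rows that the table repeats.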

How the data were processed

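Per the file headers, the deposited values are read counts that the authors normalized and put on the log2 scale, with 1 value for each gene on each substrate. The submitters' processing notes list TopHat2, HTSeq and DESeq (1.5) without saying what each did. How libraries were combined, the genome build, the annotation, the strand setting, the size factors and any pseudocount: not given in the sources used here. Any of these could move low values or whole columns. How the 1000 rows were chosen from the genome is also not given, so shares, ranks and column medians hold for this table only. Identical repeated rows (23 of 1000) were dropped, which left 977 genes. Of these, 967 had about 10 normalized counts or more in at least 2 of the 5 substrates. Values per library were not analysed here, so depth is unknown and no interval, test or p-value is given.

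Differences were taken on the log2 scale with Python 3.11.15, pandas 2.3.3 and numpy 2.4.6. The code of the rule was run on a simulated table with planted members. Their wood shift was far above the margin and the noise was very small, so recovery was certain. That run says nothing about the rule on the real values. Alternatives were other filters, 8 added to the linear values, quantile normalization, centring on column medians, repeated rows kept, a wood margin of 1, the wood margin alone, and scaling by the median gene (equal median difference from each gene's mean), which was added after seeing the data. Genes were named by rank within the members: largest margin, abundance, largest differences between substrates, and nearest to a limit of the rule. Others were named after their values were seen. The members and lists were chosen with earlier results of these data known.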

Additional observations from a re-analysis of the deposited data

How the results depend on the processing

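The number of genes found by the rule was 35 as deposited, 16 after quantile normalization, 13 after centring on column medians, 20 after scaling by the median gene (added after seeing the data) and 11 at a wood margin of 1. It stayed within 1.5 times with no filter, the stricter filter (32 normalized counts), 8 added, repeated rows kept and the wood margin alone. Members with pine 2-fold above maltose numbered 25 as deposited, 11 after quantile normalization, 9 after centring and 16 after scaling by the median gene, and those with aspen 2-fold above maltose numbered 27 and, after centring, 17. The median of straw minus maltose over the members was 0.07 as deposited and turned to -0.17 with quantile normalization, -0.32 with centring and -0.052 with scaling by the median gene. The median wood margin was between 0.40 and 0.80 in these settings. The margin of gene 1595434 turned to -0.035 with quantile normalization. That of gene 1192226 turned to -0.023 with quantile normalization and -0.072 with centring, and that of gene 1597163 came to 0 with quantile normalization. The margin stayed above 0 in all 5 scalings for 32 of the 35 members. The cause of these differences was not tested. Leaving out each replicate was not run, and depth limits could not be set, since no values per library were used. No paired analysis was possible because each substrate has 1 value per gene.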
